A study of Homo sapiens with 14 samples.

Results

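The 26 genes described here were protein-coding genes whose RNA was highest at the middle one of 3 ages of human cartilage pellets grown from stem cells. They were chosen by their measured TPM values. A gene was included when its mean level at day 30 was at least 5 TPM (a level scaled for transcript length and library size), at least 2.5 times the mean of day 21 and of day 45, and when its lowest day 30 library lay above its highest library of the other days. These conditions were met by 26 of the 9377 protein-coding genes with a day 30 mean of 5 TPM or more (0.277%), out of 60587 genes measured. The condition on the libraries alone was met by 208 of the 9377 (2.22%). All day 30 levels below are therefore a description of what the choice fixed, and no test is attached to the difference of day 30 from either other day. Day 45 was compared with day 21 by a test, because the choice set no direction between those days.

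RNA sequencing of whole pellets gave 14 libraries, 4 from day 21, 5 from day 30 and 5 from day 45. All pellets were differentiated from WA01, a single human embryonic stem cell line, in chondrogenic medium, with no genetic change and no untreated control named in the labels. The library titled day 45 replicate 1 carries a treatment label of 30 days, and it was used at day 45 as titled. The labels do not say whether replicates came from separate cultures, so p-values measure the spread between these libraries, which may be technical.

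In a developing cartilage, chondrocytes first multiply and secrete a matrix of collagen II and aggrecan, and later enlarge, switch to collagen X and prepare the matrix for mineral. In growth plates UCMA is known from resting chondrocytes, and hedgehog and WNT signals set the pace of enlargement. The products of the 26 genes include extracellular matrix proteins, secreted signalling factors, metabolic enzymes, and proteins of vesicles and the cytoskeleton.

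The libraries held between 18183776 and 33660704 expected counts. Chondrocyte markers were present throughout: the 16 genes of a chondrocyte list summed to 28867 to 33575 TPM at day 21, 46604 to 111540 TPM at day 30 and 75907 to 109079 TPM at day 45, and none averaged under 1 TPM at any day. The 16 hypertrophic markers summed to 356 to 451 TPM at day 21, 750 to 1237 TPM at day 30 and 2353 to 4275 TPM at day 45. All 8 blood markers averaged under 1 TPM at every day. Other lists were also expressed. The 12 fibroblast and perichondrium markers summed to 6674 to 8313 TPM at day 21, 3438 to 5440 TPM at day 30 and 4440 to 5583 TPM at day 45. The 9 bone markers, which include collagen I genes, summed to 5884 to 6707, 4076 to 5490 and 3950 to 5367 TPM. The 7 tendon markers summed to 1153 to 1319, 1400 to 2217 and 1955 to 2506 TPM. The day 30 libraries also differed in how expression deviations followed transcript length. Spearman correlation across genes between length and the deviation from the 14-library mean was 0.13 to 0.21 at day 21, -0.12 and -0.08 in day 30 replicates 1 and 2, -0.39 to -0.45 in day 30 replicates 3 to 5, and 0.13 to 0.19 at day 45. Its part in the day 30 levels was not tested. The share assigned to processed pseudogenes was 0.34%, 0.51%, 0.58%, 0.95% and 1.17% in day 30 replicates 1 to 5. At days 21 and 45 it was 0.34% to 0.52%, and the part of this difference was not tested either. The 26 genes had a median length of 1926 bases, against 2199 bases for all 9377, and 9 of them (34.6%) were shorter than 1500 bases, against 26.01% of the 9377.

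Summed over the 26 genes, RNA reached 542, 514, 299 and 329 TPM at day 21, 1625, 1810, 1689, 1514 and 1501 TPM at day 30, and 281, 291, 245, 317 and 301 TPM at day 45. MATN1, UCMA and CLEC18A made up most of these sums. Without them the other 23 genes summed to 75.7 to 132 TPM at day 21, 419 to 498 TPM at day 30 and 117 to 125 TPM at day 45. In pellets sequenced whole, fewer cells of a type and less RNA per cell cannot be told apart. The day 30 mean was 2.67 times (ZNF404) to 4.78 times (AOAH) the higher of the other day means, with a median of 3.28 times. The gap between the lowest day 30 library and the highest other library ranged from 1.04 times in ZNF404 to 2.92 times in AOAH.

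**Figure D1:**
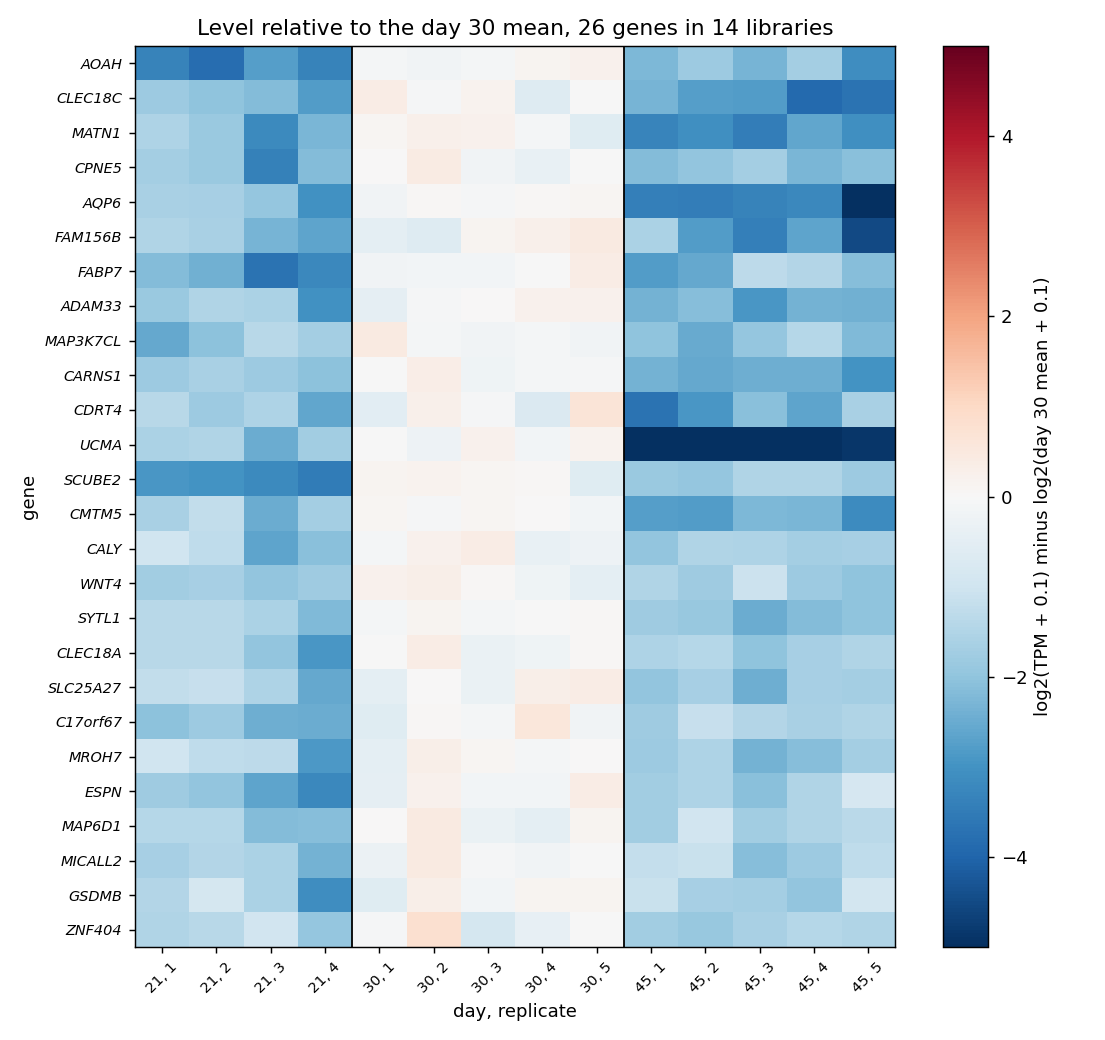
Heat map of the 26 genes (rows) in the 14 libraries (columns, by day and replicate); colour gives log2(TPM + 0.1) minus log2 of the day 30 mean + 0.1. The 5 day 30 columns are near 0 in most rows, the day 21 and day 45 columns are below it, and UCMA is far lower at day 45 than at day 21.

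The lowest day 30 value came from replicate 1 in 10 genes, replicate 4 in 5, replicates 3 and 5 in 4 each and replicate 2 in 3. The mean of day 30 replicates 3 to 5 was above that of replicates 1 and 2 in 12 genes and below it in 14. The median coefficient of variation at day 30 was 20.8%. At day 21 replicate 4 was the lowest library in 16 genes and replicate 3 in 8. With day 30 replicates 3 to 5 left out, 33 genes met the conditions, among them 23 of the 26, and AOAH, C17orf67 and SLC25A27 did not. With day 21 replicate 4 left out, 22 met them, all among the 26, and GSDMB, MROH7, SLC25A27 and ZNF404 did not. With day 45 replicate 1 placed at day 30 no gene met them. The choice had already placed this library below every day 30 library of the 26, so the loss of the 26 was fixed in advance. No other gene met the conditions in that run either, and the label itself was not tested.

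MATN1 (ENSG00000162510, chr1:30711277-30723587, minus strand, GRCh38) encodes matrilin-1, a secreted protein that forms filaments linking collagen fibrils and proteoglycans in cartilage. MATN1 was at 193, 153, 60.9 and 113 TPM at day 21, at 591, 661, 642, 515 and 369 TPM at day 30, and at 56.9, 66.8, 50.3, 91.4 and 66.2 TPM at day 45. Every day 30 library was at least 1.91 times the highest other library, while the day 21 and day 45 ranges overlapped through day 21 replicate 3. The day means were 130 ± 56.4 TPM, 556 ± 119 TPM and 66.3 ± 15.6 TPM (SD, n = 4, 5 and 5), and MATN1 had the highest day 30 level of the 26. An antisense gene, MATN1-AS1, overlaps it and averaged 3.502, 6.59 and 4.13 TPM at days 21, 30 and 45, and the library kit does not mark strand, so reads from the overlap cannot be told apart. Of the other genes in the chondrocyte list, the related MATN3 averaged 581, 1677 and 2712 TPM at the 3 days and rose further at day 45 against day 30 (edgeR adjusted p = 0.00211). The related MATN4 averaged 1921, 3292 and 1246 TPM. It rose at day 30 against day 21 (edgeR adjusted p = 1.55e-05) and fell at day 45 against day 30 (edgeR adjusted p = 2.30e-06).

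UCMA (ENSG00000165623, chr10:13221767-13234334, minus strand, GRCh38) encodes a small secreted cartilage protein rich in gamma-carboxyglutamate, which was named after the upper zone of the growth plate. UCMA was at 115, 120.4, 60.01 and 103 TPM at day 21, at 335, 282, 391, 309 and 379 TPM at day 30, and at 5.65, 3.67, 8.57, 10.1 and 11.6 TPM at day 45. The 3 days did not overlap, with day 30 highest, day 21 between and day 45 lowest. The means were 99.4 ± 27.3, 339 ± 46.0 and 7.91 ± 3.24 TPM (SD, n = 4, 5 and 5), which put day 30 at 3.41 times day 21 and 42.9 times day 45.

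CLEC18A (ENSG00000157322, chr16:69950705-69964452, plus strand) and CLEC18C (ENSG00000157335, chr16:70173322-70187361, plus strand) encode closely related secreted proteins with a C-type lectin domain, a fold that often binds sugars. CLEC18A was at 109, 108, 72.1 and 38.1 TPM at day 21, at 281, 367, 226, 244 and 298 TPM at day 30, and at 96.6, 104, 69.5, 90.7 and 101 TPM at day 45. CLEC18C was at 1.65, 1.44, 1.26 and 0.79 TPM at day 21, at 7.77, 5.84, 6.74, 3.86 and 5.95 TPM at day 30, and at 1.14, 0.80, 0.79, 0.31 and 0.37 TPM at day 45. Both were high in all day 30 libraries, and the day 21 and day 45 ranges overlapped in both. Their transcripts share long stretches: 62.4% of the 75-base windows of CLEC18A and 78.8% of those of CLEC18C also occur in another gene, so the split between the copies depends on how RSEM shared out the reads. A 75-base stretch of exon 12 in each is shown because a single base separates them there. Capitals mark that base, which differs as G40A, counted from 1 at the 5′ end with the CLEC18A base first; the stretches lie at chr16:69962986-69963060 and chr16:70185895-70185969 on the plus strand of GRCh38.
CLEC18A: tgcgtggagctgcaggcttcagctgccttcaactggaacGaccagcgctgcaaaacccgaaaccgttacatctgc
CLEC18C: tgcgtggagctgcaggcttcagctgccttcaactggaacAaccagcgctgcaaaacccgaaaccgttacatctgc
Added together with CLEC18B, which alone did not meet the conditions because its libraries overlapped, the 3 copies averaged 85.8 ± 34.9 TPM at day 21, 304 ± 47.4 TPM at day 30 and 94.5 ± 13.8 TPM at day 45 (SD, n = 4, 5 and 5). The sum met the same conditions, at 3.22 times the higher other mean.

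**Figure D2:**
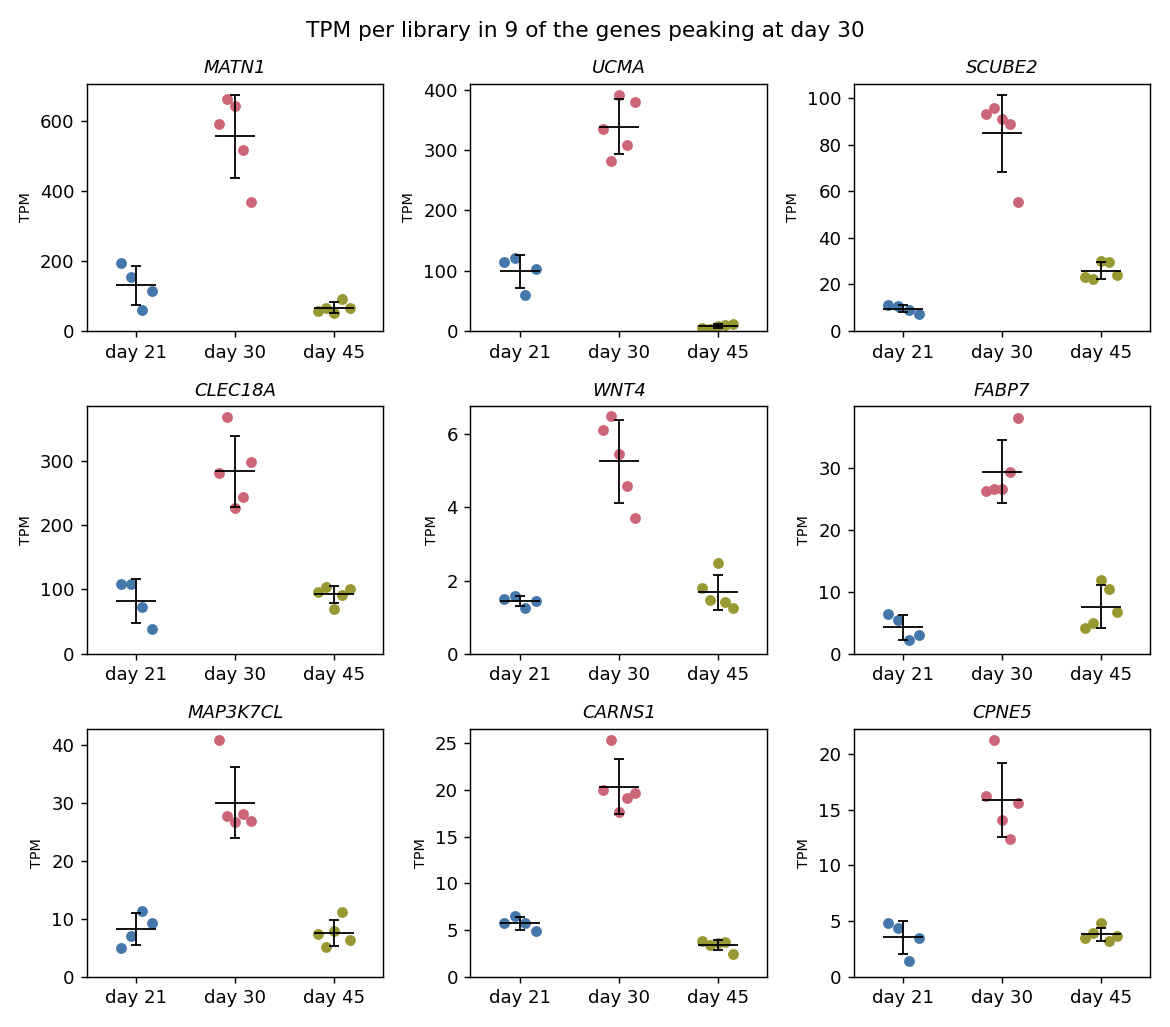
TPM of 9 of the genes at days 21, 30 and 45; each point is a library, and the line and bars give the mean and SD (n = 4, 5 and 5). In each panel the 5 day 30 points lie above all others, while day 45 lies below day 21 in UCMA and above it in SCUBE2.

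SCUBE2 (ENSG00000175356, chr11:9019498-9138114, minus strand) encodes a secreted and cell-surface protein that helps release lipid-bearing hedgehog ligands from the cells that make them. SCUBE2 was at 11.2, 10.7, 9.16 and 7.48 TPM at day 21, at 93.1, 95.7, 91.0, 89.0 and 55.4 TPM at day 30, and at 23.2, 22.3, 29.9, 29.5 and 24.0 TPM at day 45. The 3 days did not overlap, and here day 21 was the lowest. Day 30 replicate 5 stood below the other 4 day 30 libraries but was still 1.85 times the highest day 45 library.

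UCMA and SCUBE2 have the largest differences between day 45 and day 21 in opposite directions, and their RefSeq promoters (GRCh38.p14, 250 bases before to 50 after the start, minus strand) are shown for the contrast in CG content. Capitals mark CG pairs. The UCMA window, at chr10:13234325-13234624, holds 5 CG pairs at 60.7% G and C, and the SCUBE2 window, at chr11:9091550-9091849, holds 46 at 83.7%. The SCUBE2 window lies within the gene span given above rather than at its 5′ end. Which start the pellets used was not determined.
UCMA: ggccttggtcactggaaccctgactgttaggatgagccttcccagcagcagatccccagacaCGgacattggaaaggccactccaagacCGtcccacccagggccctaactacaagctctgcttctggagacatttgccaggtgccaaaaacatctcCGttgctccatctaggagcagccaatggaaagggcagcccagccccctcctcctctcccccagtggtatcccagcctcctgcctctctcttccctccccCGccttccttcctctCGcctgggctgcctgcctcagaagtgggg
SCUBE2: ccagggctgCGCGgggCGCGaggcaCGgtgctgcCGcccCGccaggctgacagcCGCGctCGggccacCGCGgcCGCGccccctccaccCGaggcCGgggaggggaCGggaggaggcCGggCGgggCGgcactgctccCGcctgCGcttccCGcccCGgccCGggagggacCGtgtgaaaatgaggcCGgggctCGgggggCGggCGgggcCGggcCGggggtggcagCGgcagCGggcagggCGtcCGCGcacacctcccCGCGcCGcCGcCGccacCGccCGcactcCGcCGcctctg
Of the 26 genes, 15 had a promoter in the table. The 15 had a median of 13 CG pairs and 62% G and C, against 14 and 58.7% over all 34943 promoters. Among them, genes higher at day 45 than at day 21 in the test below held from 5 (AOAH) to 47 (WNT4) CG pairs. CMTM5, lower at day 45 like UCMA, held 2. A link between CG content and direction was not tested. The motifs below were searched on both strands, as a description only, and none contains another. The E-box CAGCTG was in 5 of the 15 (CALY, CMTM5, MICALL2, SLC25A27 and SYTL1), against 17.9% of all promoters. The SOX core AACAAT was in 2 (AOAH and ZNF404), against 10.1%, the RUNX core TGTGGT in 2 (CALY and ZNF404), against 13.1%, and the AP-1 motif TGANTCA in 1 (SYTL1), against 7.72%. The TATA box TATAAA, in 11.6% of all promoters, and the GLI core TGGGTGGTC, in 0.237%, were in none of the 15 windows.

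WNT4 (ENSG00000162552, chr1:22117305-22143969, minus strand) encodes a WNT ligand known in mouse and chick for its part in joint formation and in the pace of chondrocyte enlargement. WNT4 was at 1.5, 1.58, 1.26 and 1.45 TPM at day 21, at 6.10, 6.49, 5.45, 4.58 and 3.70 TPM at day 30, and at 1.80, 1.47, 2.47, 1.41 and 1.24 TPM at day 45. All day 30 libraries were higher, and the other days overlapped. ADAM33, a membrane-anchored metalloprotease of the ADAM family, was at 2.49, 3.26, 3.07 and 1.06 TPM at day 21, at 6.79, 8.98, 9.43, 10.8 and 10.7 TPM at day 30, and at 1.74, 2.08, 1.16, 1.74 and 1.68 TPM at day 45. Its day 30 libraries were at least 2.08 times any other, and the other days overlapped.

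Several members handle small molecules, lipids or water. CARNS1, the enzyme that makes the dipeptide carnosine, was at 5.70, 6.53, 5.77 and 4.85 TPM at day 21, at 20.03, 25.4, 17.6, 19.1 and 19.7 TPM at day 30, and at 3.87, 3.37, 3.64, 3.70 and 2.45 TPM at day 45. Its 3 days did not overlap, with day 45 lowest. The opposite-strand gene PPP1CA, which overlaps CARNS1, averaged 127, 80.3 and 69.1 TPM at days 21, 30 and 45. Reads from that overlap cannot be told apart. FABP7, a carrier of fatty acids best known from glia of the developing brain, was at 6.46, 5.42, 2.20 and 3.07 TPM at day 21, at 26.3, 26.6, 26.6, 29.3 and 38.1 TPM at day 30, and at 4.10, 4.95, 11.8, 10.5 and 6.70 TPM at day 45. The other days overlapped in FABP7. The 8 markers of Schwann cells and glia summed to 345 to 401 TPM at day 21, 316 to 443 TPM at day 30 and 81.8 to 146 TPM at day 45. Of these markers 4, 3 and 4 averaged under 1 TPM at days 21, 30 and 45, so the sums came from the rest. The part of these markers in the FABP7 levels was not tested.

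AOAH, which removes fatty acids from bacterial lipopolysaccharide and is best known from myeloid cells, was at 0.44, 0.29, 0.70 and 0.44 TPM at day 21, at 4.94, 4.65, 4.95, 5.87 and 6.19 TPM at day 30, and at 1.04, 1.43, 0.98, 1.59 and 0.53 TPM at day 45. It had the widest gap of the 26 between day 30 and the other days, on few reads, with 2 expected counts in its lowest day 21 library and 28 in its lowest day 30 library. The blood markers summed to at most 0.71 TPM in any library. AQP6, a channel of intracellular vesicles in the kidney, was at 1.87, 1.77, 1.48 and 0.63 TPM at day 21, at 5.21, 6.18, 5.68, 6.11 and 6.23 TPM at day 30, and at 0.46, 0.45, 0.49, 0.54 and 0.06 TPM at day 45. Its 3 days did not overlap, with day 45 lowest. The opposite-strand gene RACGAP1, which overlaps AQP6, averaged 52.3, 11.6 and 26.1 TPM at days 21, 30 and 45. SLC25A27, a mitochondrial carrier of the uncoupling protein family, was at 9, 9.34, 7.27 and 3.55 TPM at day 21, at 15.2, 21.2, 16.6, 25.6 and 27.1 TPM at day 30, and at 5.28, 6.66, 3.77, 6.66 and 6.47 TPM at day 45. All 5 of its day 30 libraries were higher, and the other days overlapped.

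Further members act on membranes, vesicles or the cytoskeleton. CPNE5, a copine that binds membrane lipids in response to calcium, averaged 3.52 ± 1.498 TPM at day 21, 15.9 ± 3.33 TPM at day 30 and 3.81 ± 0.60 TPM at day 45 (SD, n = 4, 5 and 5). SYTL1, a partner of the secretory GTPase Rab27, averaged 10.2 ± 2.37, 31.4 ± 2.21 and 7.504 ± 1.37 TPM at the same days, and its day 30 libraries, at 29.1 to 34.4 TPM, were the least variable of the 26. CMTM5, a membrane-spanning protein of the MARVEL family, averaged 4.99 ± 1.67, 16.3 ± 1.25 and 2.59 ± 0.69 TPM. In all 3 genes every day 30 library was more than 2 times any other library, and the day 21 and day 45 ranges overlapped.

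CALY, a vesicle protein known mainly from neurons, averaged 1.94 ± 0.97 TPM at day 21, 6.14 ± 1.32 TPM at day 30 and 1.86 ± 0.22 TPM at day 45 (SD, n = 4, 5 and 5). ESPN, an actin-bundling protein of the hair cells of the inner ear, averaged 3.46 ± 1.48, 17.4 ± 3.76 and 6.15 ± 2.11 TPM. MICALL2, an effector of the GTPase Rab13 at cell junctions, averaged 9.99 ± 2.44, 33.4 ± 6.88 and 12.2 ± 3.51 TPM. Day 30 was above the other days by a narrower margin in these 3, at 1.59, 1.33 and 1.78 times the highest other library in CALY, ESPN and MICALL2. MAP6D1, related to a protein that stabilises microtubules, averaged 2.75 ± 0.79, 9.40 ± 2.46 and 3.41 ± 0.82 TPM. It shares 65.0% of its 75-base windows with ENSG00000283765, and the 2 genes summed met the conditions at 2.98 times the higher other mean.

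The remaining 7 members have other or little-known roles. MAP3K7CL, named for its likeness to one end of the kinase MAP3K7, was at 4.97, 7.11, 11.4 and 9.28 TPM at day 21, at 40.9, 27.7, 26.7, 28.1 and 26.9 TPM at day 30, and at 7.42, 5.10, 7.82, 11.2 and 6.36 TPM at day 45. Day 30 replicate 1 stood above the other 4 day 30 libraries, all of which were above every library of the other days. GSDMB, of the gasdermin family of pore-forming proteins, averaged 9.62 ± 5.01 TPM at day 21, 28.6 ± 6.34 TPM at day 30 and 10.7 ± 3.28 TPM at day 45 (SD, n = 4, 5 and 5). ZNF404, a zinc finger protein, averaged 5.16 ± 1.46, 13.8 ± 6.44 and 4.41 ± 0.59 TPM, and its lowest day 30 library, at 7.39 TPM, lay just above its highest day 21 library, at 7.11 TPM. Day 30 replicate 2, at 24.4 TPM, was far above the other 4 ZNF404 values of 7.39 to 13.7 TPM.

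C17orf67 averaged 2.403 ± 0.55, 11.1 ± 3.49 and 3.90 ± 0.65 TPM at days 21, 30 and 45, and MROH7 averaged 2.34 ± 1.05, 6.61 ± 1.29 and 1.73 ± 0.41 TPM (SD, n = 4, 5 and 5). MROH7 shares 50.5% of its windows with the readthrough gene MROH7-TTC4, and the sum met the conditions at 2.85 times the higher other mean. In FAM156B and CDRT4 the sums with the genes that share most of their windows did not. FAM156B averaged 7.32 ± 2.69, 28.5 ± 8.84 and 4.33 ± 3.16 TPM and shares 100% of its windows with FAM156A. Together they averaged 51.0 ± 7.33, 73.7 ± 6.37 and 35.5 ± 2.63 TPM, 1.45 times the higher other mean, and FAM156A itself averaged 43.7, 45.2 and 31.2 TPM. CDRT4 averaged 3.92 ± 1.32, 13.5 ± 5.28 and 2.44 ± 1.32 TPM and shares 71.0% of its windows with the readthrough gene TVP23C-CDRT4. The pair averaged 21.5 ± 1.72, 37.6 ± 5.57 and 20.2 ± 2.37 TPM, 1.75 times the higher other mean. For both genes the size of the day 30 peak therefore depends on how reads were divided between genes that share sequence.

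TPM also depends on the transcript length that RSEM assigns to each gene in each library. For the same count, a shorter length gives a higher TPM. No member had day 30 lengths that all lay outside the other days, but mean lengths differed between days in some. The part of length in meeting the 2.5-fold limit was not tested. In CDRT4 the length was 599 to 632 bases at day 21, 632, 1058, 1672, 1075 and 1584 bases at day 30, and 632 bases in every day 45 library. In C17orf67 it was 1698 to 2037 bases at day 21, 1135 to 1758 bases at day 30 and 1876 to 2037 bases at day 45. In MICALL2 it was 2420 to 2985 bases at day 21, 1551 to 2242 bases at day 30 and 2042 to 2775 bases at day 45. Mean lengths at days 21, 30 and 45 were 1952, 1402 and 2005 bases in C17orf67 and 2709, 1864 and 2450 bases in MICALL2. In CDRT4, where day 30 was longer, they were 621, 1204 and 632 bases. UCMA was assigned 870 bases in all 14 libraries.

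**Figure D3:**
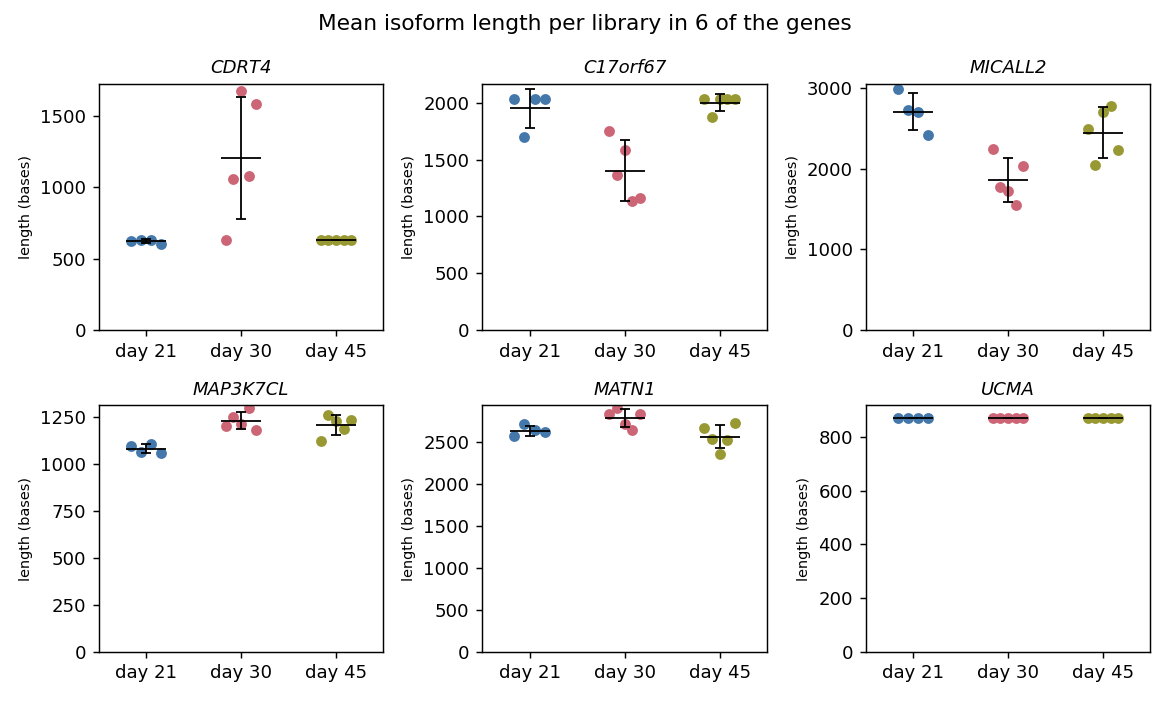
Transcript length in bases assigned to 6 of the genes in each library, by day; each point is a library. Day 30 points are longer in 4 of 5 libraries of CDRT4 and mostly shorter in C17orf67 and MICALL2, and UCMA stays at 870 bases.

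Day 45 levels differed from day 21 levels in part of the 26 genes, at a share no higher than that of all genes. Over the 17838 genes with enough counts, edgeR's quasi-likelihood test of day 45 against day 21 called 57.7% at a Benjamini-Hochberg adjusted p below 0.05, 27.1% higher and 30.5% lower at day 45. All 26 members were tested. Of these 10 (38.5%) were higher at day 45, 3 (11.5%) were lower and 13 were not called, a total of 50% against the 57.7% of all genes. The median log2 difference, day 45 minus day 21, was 0.29 in the members and -0.05 in all genes tested.

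The split depended on the scaling of the libraries. The median of all genes was -0.05 after TMM scaling of counts but -0.34 for log2(TPM + 1), a shift of over 0.1, and on that scale limma called 5 members higher and 7 lower at day 45, with a median of -0.13 over the 26. Over all genes tested limma called 2147 higher and 8722 lower on that scale, against 4836 and 5448 in the edgeR fit. The shift toward lower calls was therefore not particular to the members. The TPM ranges of day 45 and day 21 did not overlap in 5 members (19.2%), against 53.7% of all genes tested: SCUBE2 and C17orf67 were higher at day 45, and UCMA, AQP6 and CARNS1 lower.

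**Figure D4:**
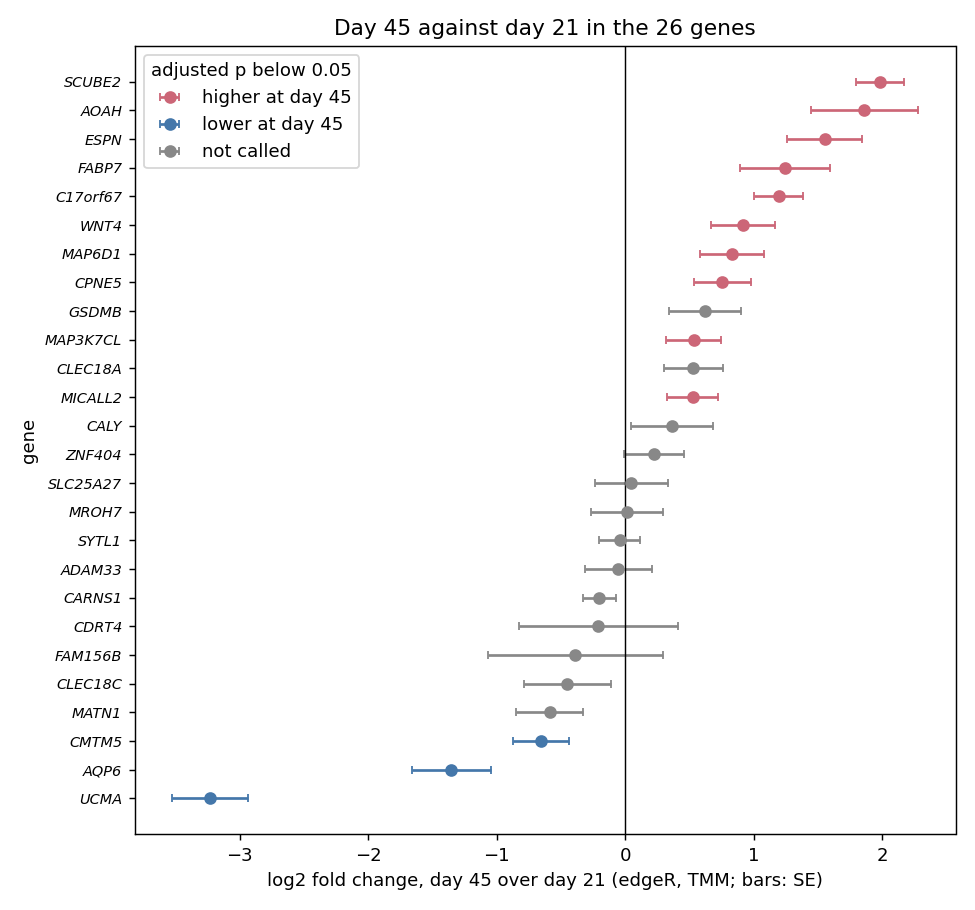
Log2 fold change of day 45 over day 21 with its SE for the 26 genes, from edgeR's quasi-likelihood fit; colours mark genes called higher, lower or not called at an adjusted p of 0.05. SCUBE2 is at the top with 1.98 and UCMA at the bottom with -3.23.

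Among matrix and secreted proteins, UCMA fell by 3.23 ± 0.30 on the log2 scale (SE, edgeR adjusted p = 1.72e-07), with means of 7.91 TPM at day 45 and 99.4 TPM at day 21, and a 9.37-fold lower fitted level at day 45 on TMM-scaled counts. The MATN1 difference was -0.59 ± 0.26 (edgeR adjusted p = 0.0647) and did not pass. It passed with DESeq2 (adjusted p = 0.0440), on log2(TPM + 1) with limma (-0.87, adjusted p = 0.0101), and without day 21 replicate 3, the lowest day 21 library of MATN1 (-0.84, adjusted p = 0.00169), or day 45 replicate 4 (adjusted p = 0.0406). CLEC18A differed by 0.53 ± 0.23 (edgeR adjusted p = 0.0603) and CLEC18C by -0.45 ± 0.34 (edgeR adjusted p = 0.268). CLEC18A passed with DESeq2 (adjusted p = 0.0329) and without day 21 replicate 1 (adjusted p = 0.0164) or 2 (adjusted p = 0.0266) or day 45 replicate 3 (adjusted p = 0.0412), and CLEC18C passed without day 45 replicate 1 (adjusted p = 0.0226) and on log2(TPM + 1) with limma (adjusted p = 0.0477).

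Among signalling members, SCUBE2 rose by 1.98 ± 0.19 on the log2 scale, to 3.95 times its day 21 level on TMM-scaled counts (edgeR adjusted p = 1.15e-07), with means of 25.8 TPM at day 45 and 9.64 TPM at day 21. WNT4 rose by 0.91 ± 0.25 (edgeR adjusted p = 0.00418), but its TPM means were 1.68 at day 45 and 1.45 at day 21, and on log2(TPM + 1) the difference was 0.11 with an adjusted p of 0.556 by limma. ADAM33 differed by -0.06 ± 0.26 (edgeR adjusted p = 0.870).

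Among the lipid and transport genes, AOAH rose by 1.86 ± 0.42 (edgeR adjusted p = 0.00103) and FABP7 by 1.24 ± 0.35 (edgeR adjusted p = 0.00588), while AQP6 fell by 1.35 ± 0.31 (edgeR adjusted p = 0.00119). CARNS1 differed by -0.20 ± 0.13 (edgeR adjusted p = 0.188), and by -0.61 on log2(TPM + 1) with an adjusted p of 0.00123 by limma. The difference in SLC25A27 was 0.05 ± 0.29 (edgeR adjusted p = 0.900).

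Of the members that act on membranes and the cytoskeleton, ESPN rose by 1.55 ± 0.29 (edgeR adjusted p = 2.09e-04), MAP6D1 by 0.83 ± 0.25 (edgeR adjusted p = 0.00845), CPNE5 by 0.76 ± 0.22 (edgeR adjusted p = 0.00686) and MICALL2 by 0.52 ± 0.20 (edgeR adjusted p = 0.0306). CMTM5 fell by 0.66 ± 0.22 (edgeR adjusted p = 0.0160). The calls of CPNE5, MAP6D1 and MICALL2 did not hold on the TPM scale, with limma adjusted p of 0.561, 0.307 and 0.325 for log2(TPM + 1). That of MICALL2 also ended without day 21 replicate 3 or 4, or without day 45 replicate 1, 2 or 5, with adjusted p of 0.0508 to 0.0920. The CMTM5 call ended without day 21 replicate 1 (adjusted p = 0.0521) or 2 (adjusted p = 0.0627). CALY and SYTL1 differed by 0.36 ± 0.32 and -0.04 ± 0.16 and did not pass, although SYTL1 passed on log2(TPM + 1) with limma (-0.38, adjusted p = 0.0424).

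Of the remaining genes C17orf67 rose by 1.19 ± 0.19 (edgeR adjusted p = 4.14e-05). MAP3K7CL rose by 0.53 ± 0.21 (edgeR adjusted p = 0.0425), but the TPM means were 7.57 at day 45 and 8.19 at day 21, the limma value on log2(TPM + 1) was -0.09, and the call ended without day 21 replicate 1 or 2 or day 45 replicate 1, 3 or 4, with adjusted p of 0.0534 to 0.145. GSDMB (0.62 ± 0.28, adjusted p = 0.0718), ZNF404 (0.22 ± 0.24), MROH7 (0.01 ± 0.28), CDRT4 (-0.21 ± 0.62) and FAM156B (-0.39 ± 0.68) did not pass the edgeR test. GSDMB passed with DESeq2 (adjusted p = 0.0366) and without day 21 replicate 2 (adjusted p = 0.0382) or day 45 replicate 4 (adjusted p = 0.0498). Of the 26 genes, 6 had a lowest expected count under 10 at day 21 or day 45, namely AOAH, CLEC18C, AQP6, FAM156B, CDRT4 and CALY.

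MATN1 was the only one of the 16 chondrocyte markers among the 26 genes. Of the 15 tested chondrocyte genes other than MATN1, 13 rose and 2 fell at day 30 against day 21, where edgeR called 54.4% of all genes, 27.2% higher and 27.1% lower. At day 45 against day 30, 3 rose, 5 fell and 7 were not called, where 56.3% of all genes were called, 27.6% higher and 28.7% lower. The 3 listed genes with the smallest adjusted p in this comparison were CNMD, or chondromodulin, with 339 TPM at day 45 and 1278 TPM at day 30 (log2 -1.95 ± 0.16, edgeR adjusted p = 6.37e-08), COL9A2 with 1190.2 TPM and 3851 TPM (-1.72 ± 0.15, edgeR adjusted p = 1.36e-07), and MATN4 with 1246 TPM and 3292 TPM (-1.42 ± 0.16, edgeR adjusted p = 2.30e-06). All 3 had also risen by over 1 on the log2 scale at day 30 against day 21, by 1.04 ± 0.17, 1.16 ± 0.16 and 1.23 ± 0.17. Against day 21, the smallest adjusted p values belonged to SNORC, MATN3, HAPLN1 and ACAN, which were higher at both later days. HAPLN1, the link protein of hyaluronan, averaged 1097, 3001 and 3930.4 TPM at days 21, 30 and 45, and ACAN, the aggrecan core protein, averaged 901, 4778 and 7295 TPM. The cartilage proteoglycan core gene SNORC averaged 165, 908 and 993 TPM at days 21, 30 and 45, with no call between day 45 and day 30 (edgeR adjusted p = 0.414). Without day 30 replicates 3 to 5, 8 of the 15 fell at day 45 against day 30 and 1 fell at day 30 against day 21, and without day 30 replicate 1, 5 rose at day 45 against day 30.

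The superficial zone and joint list holds UCMA and 7 other tested genes. At day 30 against day 21, 3 rose and 2 fell, where 27.2% of all genes were called higher and 27.1% lower. At day 45 against day 30, 3 rose and 3 fell, where the shares were 27.6% and 28.7%. The 2 that fell at day 30 became 1 without day 21 replicate 3 or 4 or day 30 replicate 2, 4 or 5, and 4 on log2(TPM + 0.1). PRG4, which encodes lubricin, averaged 107, 215 and 139 TPM at days 21, 30 and 45, a rise of 1.54 ± 0.22 at day 30 (edgeR adjusted p = 2.24e-05) and then a fall of 0.66 ± 0.20 at day 45 (edgeR adjusted p = 0.0104). CILP, of the cartilage intermediate layer, fell at both steps, with means of 9.51, 1.46 and 0.47 TPM. The joint factor GDF5 rose at both, with means of 2.495, 3.95 and 7.68 TPM. CRTAC1, a secreted cartilage protein with the smallest adjusted p of the list at day 45 against day 30, went the other way from the 26 genes, with means of 95.4, 54.5 and 111 TPM. It fell by 0.33 ± 0.12 at day 30 against day 21 (edgeR adjusted p = 0.0285) and rose by 1.02 ± 0.12 at day 45 against day 30 (edgeR adjusted p = 2.26e-06). ERG, a transcription factor of joint cartilage, averaged 237, 101 and 93.7 TPM. Its fitted difference was -0.17 ± 0.11 at day 30 against day 21 (edgeR adjusted p = 0.187), and it fell by 0.68 ± 0.10 at day 45 against day 30 (edgeR adjusted p = 2.58e-05).

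Around WNT4, 22 other genes of a WNT pathway list were tested. At day 30 against day 21, 4 rose, 10 fell and 8 were not called, and at day 45 against day 30, 5 rose, 10 fell and 7 were not called. Over all genes tested, the shares were 27.2% higher and 27.1% lower in the first comparison, and 27.6% and 28.7% in the second. FRZB, a secreted WNT antagonist of cartilage, had means of 0.69, 11.9 and 5.71 TPM at days 21, 30 and 45. It rose by 4.55 ± 0.28 at day 30 (edgeR adjusted p = 2.42e-09) and fell by 1.05 ± 0.21 at day 45 against day 30 (edgeR adjusted p = 3.99e-04). The ligand WNT5B rose at both steps, with means of 15.5, 21.6 and 33.9 TPM, and the R-spondin receptor LGR6 fell at both, with means of 26.9, 4.09 and 0.56 TPM. SFRP2, another secreted antagonist, averaged 277, 126 and 39.0 TPM. RSPO3, a secreted R-spondin that strengthens WNT signals, averaged 11.5, 7.87 and 2.54 TPM and fell by 1.84 ± 0.18 at day 45 against day 30 (edgeR adjusted p = 4.63e-07).

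Just inside the 2.5-fold limit stood ZNF404 at 2.67, GSDMB at 2.69 and MICALL2 at 2.74 times the higher other mean. Just outside it stood RBPJL, with 4.34, 10.7 and 1.65 TPM at days 21, 30 and 45, HRC, with 2.33, 5.74 and 1.26 TPM, and LTB4R, with 7.75, 19.1 and 5.30 TPM, each at 2.46 to 2.47 times. A further 6 genes met every condition but the one on overlap: CLEC18B, ZACN, PLA2G4B, MTRNR2L1, MTRNR2L6 and ENSG00000283149. With TPM divided by the TMM factor of each library, 31 genes met the conditions, among them 21 of the 26. C17orf67, ESPN, GSDMB, MAP6D1 and MICALL2 did not, at 2.24 to 2.42 times the higher other mean.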

How the data were processed

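Per the labels, RNA was extracted with an RNeasy micro kit and libraries were made with TruSeq RNA Library Prep Kit v2, which does not mark strand. Per the submitters' processing notes, the tools were STAR 2.4.2a and RSEM 1.2.25, with GRCh38 as the genome; which annotation they used is not stated in these sources. Per the file headers, the deposited tables give the expected count, TPM and a transcript length (the abundance-weighted length of a gene's isoforms) for each gene. The authors' TPM were used to choose and describe the genes. The deposited expected counts were rounded for the tests. Gene type, coordinates and shared windows came from GENCODE 29, which held 58400 of the 60587 identifiers.

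Genes were kept by filterByExpr (17838), libraries scaled by TMM (factors 0.757 to 1.31), and the day means of all 14 libraries were compared in a single fit with edgeR 4.0.16 (robust quasi-likelihood, Benjamini-Hochberg adjustment; R 4.3.3). SE is the log2 fold change divided by the square root of F. DESeq2 1.42.0 and limma 3.58.1 on log2(TPM + 1) and log2(TPM + 0.1) were alternatives. The procedure was run on simulated counts with the same dispersion for every gene and no change in most genes. These data differ in both respects, so that run does not show how the tests behave here. All libraries of a day differed by more than sampling noise. Same-numbered libraries of different days deviated with correlations of -0.45 to 0.19 over 13 pairs, so numbers were not used as pairs. The genes and lists were chosen with earlier results of these data known. Every one of the 26 genes is named; of other listed genes, only those with the smallest adjusted p in lists holding 1 of the 26, up to 3 per list and comparison.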

Additional observations from a re-analysis of the deposited data

Results flagged for a closer look

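Of 78 groups of libraries (26 genes at 3 days), 4 held a library far from the others, a gap that chance gives in about 1 in 20 groups. Day 30 replicate 1 had 40.9 TPM of MAP3K7CL, and the nearest of the other 4 had 28.1 TPM. Day 30 replicate 5 had 38.1 TPM of FABP7, with the nearest at 29.3 TPM. The same library had 55.4 TPM of SCUBE2, with the nearest at 89.0 TPM. Day 45 replicate 5 had 0.06 TPM of AQP6, with the nearest at 0.45 TPM.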

How the results depend on the processing

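The number of genes meeting the conditions was 57 with a fold limit of 2, 18 with a limit of 3, 53 without the condition on gene type, and 0 with day 45 replicate 1 placed at day 30. It was 22 to 36 when each library was left out in turn. On log2(TPM + 1) and log2(TPM + 0.1), limma called 5 and 5 of the 26 higher and 7 and 7 lower at day 45 than at day 21. Over all genes it called 1788 and 1750 higher and 9019 and 8886 lower at day 30 than at day 21, and 2147 and 2124 higher and 8722 and 8646 lower at day 45 than at day 21, against 4858, 4838, 4836 and 5448 in the edgeR fit. MAP3K7CL changed sign, at -0.086 and -0.094 on the TPM scales. With day 45 replicate 1 placed at day 30, 6 of the 26 were higher and 1 lower at day 45 than at day 21, and 6466 genes were called, 3036 of them higher, at day 45 against day 30. A replicate block gave 11 higher and 2 lower, ending the CMTM5 call (adjusted p = 0.0535) and adding that of CLEC18A (adjusted p = 0.0377); it changed no other call among the 26. Leaving out each library gave 8 to 11 higher and 2 to 4 lower. The calls of UCMA, SCUBE2, ESPN, FABP7 and C17orf67 held in every alternative run, and that of AOAH in every alternative that gave it a value; the fit of only the days compared gave none. Of the summary counts, 279 alternative values stayed within 1.5 times and 19 did not. Levels near 1 TPM, such as those of AOAH, AQP6, CALY and CLEC18C at days 21 and 45, rest on few reads.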

Other observations

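Besides the 26, 27 genes that are not annotated as protein-coding met the same conditions, among them 8 antisense genes, 6 lincRNAs and 3 processed pseudogenes. FER1L4, annotated as a unitary pseudogene, averaged 10.2 ± 6.33 TPM at day 21, 132 ± 31.9 TPM at day 30 and 34.7 ± 6.71 TPM at day 45 (SD, n = 4, 5 and 5). CCND2-AS1 averaged 7.56 ± 2.89, 30.9 ± 2.94 and 9.27 ± 1.82 TPM, and MIR503HG averaged 0.38 ± 0.19, 9.12 ± 2.78 and 2.83 ± 0.72 TPM. DCHS1-AS1 and ENSG00000176868, both antisense genes, were listed at 0 in every day 21 and day 45 library. DCHS1-AS1 had 2.61, 10.3, 25.6, 13.1 and 9.28 TPM in day 30 replicates 1 to 5, and ENSG00000176868 had 0.42, 14.9, 26.6, 20.1 and 21.1 TPM, so replicate 1 was the lowest in both. These genes were chosen after their values were seen.

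The opposite pattern, with day 30 lowest by the same fold and with no overlap, was met by 112 protein-coding genes. The 26 genes that peaked had a median length of 1926 bases, against 4814 bases for these 112. The part of transcript length in either pattern was not tested.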
